A study of Mus musculus with 2 samples.

Results

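The 10 genes that encode the subunits and inhibitors of the transcription factor NF-kappaB were examined in a lymphoma line of mouse B cells, CH12.LX. The 5 subunit genes Nfkb1, Nfkb2, Rela, Rel and Relb and the 5 inhibitor genes Nfkbia, Nfkbib, Nfkbie, Nfkbiz and Bcl3 were taken by matching the gene identifier, without its version, to the symbol in GENCODE M21, and all 10 were found among the 43346 annotated genes of both libraries. RNA longer than 200 nt was sequenced from 2 biological replicates of separate biosamples, which held 24469094 and 23586580 expected counts. The line is female, from strain B10.H-2aH-4bp/Wts, and the labels name no treatment, call the RNA total in one place and polyA+ in another, and list ERCC spike-ins. Both replicates form 1 group of 1 line, so the design gives levels and their spread but no test between conditions. The label of a B-cell line was checked against markers: 6 of 6 B-lineage genes reached 1 TPM in both replicates, against 1 of 13 markers of T, myeloid and stromal cells (Cd3g, at 1.32 and 1.00 TPM), whose summed level was 3.38 and 2.60 TPM, with Cd3e, Cd14 and S100a8 at 0 counts.

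NF-kappaB is a dimer of subunits that share a DNA-binding Rel homology domain. Rela, Rel and Relb also carry a transactivation domain, whereas Nfkb1 and Nfkb2 encode the precursors p105 and p100, whose N-terminal parts become the DNA-binding proteins p50 and p52 and whose C-terminal parts hold ankyrin repeats like those of the inhibitors. In resting cells the inhibitors IkappaB-alpha, -beta and -epsilon hold dimers in the cytoplasm until the IKK kinase marks them for degradation. In B cells the factor is best known for acting downstream of the B-cell receptor, CD40, the BAFF receptor and Toll-like receptors.

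All 10 genes reached 1 TPM in both replicates, against 25.4% of all annotated genes and 45.9% of protein-coding genes. TPM is a relative transcript abundance corrected for length, so levels of different genes can be set side by side. The median of the 10 genes was 25.7 TPM. The counts of all 10 genes were whole with a deposited posterior SD of 0, so none shared reads with another gene in the authors' counting. Together the genes held 0.107% ± 0.00121 of the expected counts on genes (SD, n = 2).

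**Figure D1:**
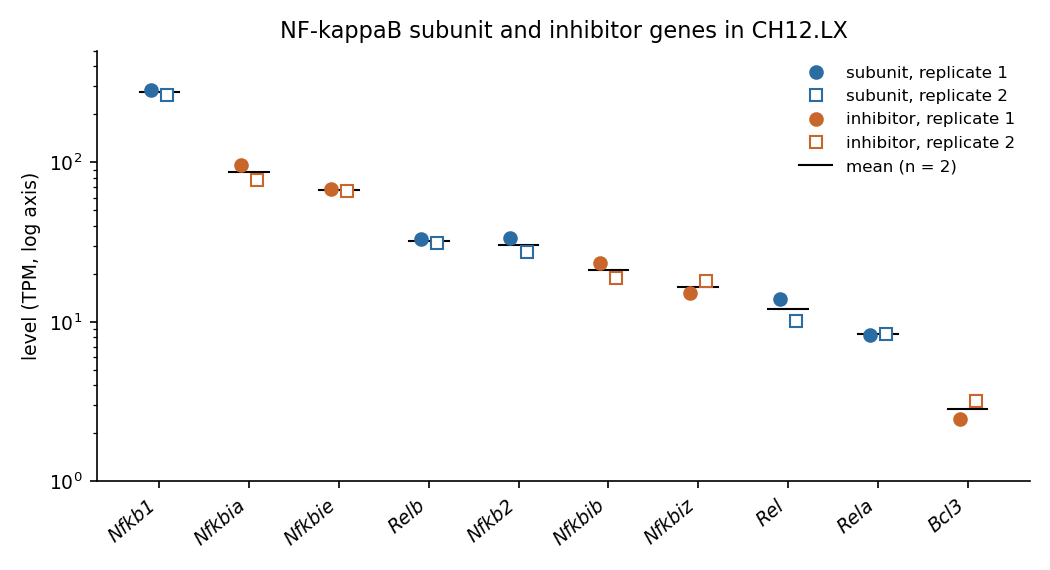
Level in TPM (log axis) of the 10 NF-kappaB genes in the 2 replicates (filled circles, replicate 1, and open squares, replicate 2), with the mean as a bar, for subunits in blue and inhibitors in orange. Nfkb1 stands at 283 and 266 TPM, above every other member, and Bcl3 at 2.47 and 3.19 TPM is lowest.

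Among the subunits, Nfkb1 (ENSMUSG00000028163.13, chromosome 3, 135584655 to 135691547, minus strand), which encodes p105 and p50, stood at 283 TPM in replicate 1 and 266 TPM in replicate 2, a mean of 274 ± 12.2 TPM (SD, n = 2), on 14489 and 14740 counts. It was the highest of the 10 genes, and 95.6% of the 9862 protein-coding genes that reached 1 TPM stood lower. Nfkb1 held 76.8% ± 0.992 of the TPM on the 5 subunit genes. Its level was 32.9 ± 1.77 times that of Rela and 9.10 ± 0.854 times that of its paralog Nfkb2. The annotation places Gm43430, a gene of unsettled type that was not analysed here, over part of Nfkb1 on the same strand.

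The Nfkb1 level was spread over 7 transcript models, and the smaller part of it lay on models that encode the whole precursor. The 2 models with the complete coding sequence of 2913 nt, the full-length model of 25 exons (ENSMUST00000029812.9) and a model that starts at exon 3 (ENSMUST00000164430.2), held 37.3% of the gene's TPM in replicate 1 and 47.9% in replicate 2, which is 106 and 127 TPM. The 4 models that begin at exon 13 or later held 61.8% and 51.3%, or 175 and 136 TPM. These models cover the exons toward the end of the gene and none of the first 12 exons. As background, a protein of the C-terminal ankyrin part alone, IkappaB-gamma, has been described from this gene in mouse lymphoid cells. The deposited tables do not tell a separate short mRNA from part of a longer one, and evenness of read coverage along the gene was not tested.

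The model that skips exon 22 (ENSMUST00000184550.3) stood highest of the 7 in replicate 1, at 90.0 TPM (deposited share of the gene 31.8%), and was at 61.6 TPM (23.2%) in replicate 2. It begins at exon 16, is annotated with an incomplete coding sequence and as a target of nonsense-mediated decay, the pathway that degrades mRNAs with early stop codons, and the exon it lacks is 67 nt long. The model that skips exon 24 (ENSMUST00000132668.3) stood at 52.8 and 54.3 TPM (18.7% and 20.4%), the most even of the larger models. It begins at exon 13, is annotated with an incomplete coding sequence of 1600 nt, and lacks an exon 178 nt long. Because neither skipped exon is a multiple of a codon in length, both skips change the reading frame. The annotated coding sequence of the model without exon 22 ends 6 bases into exon 23, where the next codon is the stop codon TGA, and that of the model without exon 24 ends 53 bases before that of the full-length model.

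The splice junctions that set these models apart are given from GENCODE M21 transcripts on GRCm38, 5′ to 3′, each with 12 bases on either side, and capitals mark the 12 bases after the junction. All lie on the minus strand of chromosome 3.
Nfkb1 full-length model, exon 21 to exon 22, chr3:135590835-135591565: gccaactggcagGTATTTGACATA
Nfkb1 full-length model, exon 22 to exon 23, chr3:135590477-135590791: tactaccacaagGGGACATGAAGC
Nfkb1 model without exon 22, exon 21 to exon 23, chr3:135590477-135591565: gccaactggcagGGGACATGAAGC
Nfkb1 full-length model, exon 23 to exon 24, chr3:135589493-135590327: gacaactatgagGTCTCTGGGGGT
Nfkb1 model without exon 24, exon 23 to exon 25, chr3:135585504-135590327: gacaactatgagATGAACTCCGGG
In the skipped form the last bases of exon 21 meet the same exon 23 bases that follow exon 22 in the full-length model. Reads over these junctions, and reads within the skipped exons, are what separates the models there.

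The balance of the Nfkb1 models differed between the replicates although the gene's counts were close. The full-length model stood at 68.4 TPM in replicate 1 and 114 TPM in replicate 2, and its deposited lower bound in replicate 2 (105 TPM) lay above its upper bound in replicate 1 (72.1 TPM). The model that starts at exon 3 and shares the coding sequence moved the other way, from 37.2 to 13.7 TPM. The share of the full-length model was thus 18.6 percentage points higher in replicate 2, at 42.8% against 24.2%. Over the 2 libraries the mean share was 33.5% ± 13.2 for the full-length model and 27.5% ± 6.10 for the model without exon 22 (SD, n = 2), and the latter was the higher in replicate 1 and the former in replicate 2.

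**Figure D2:**
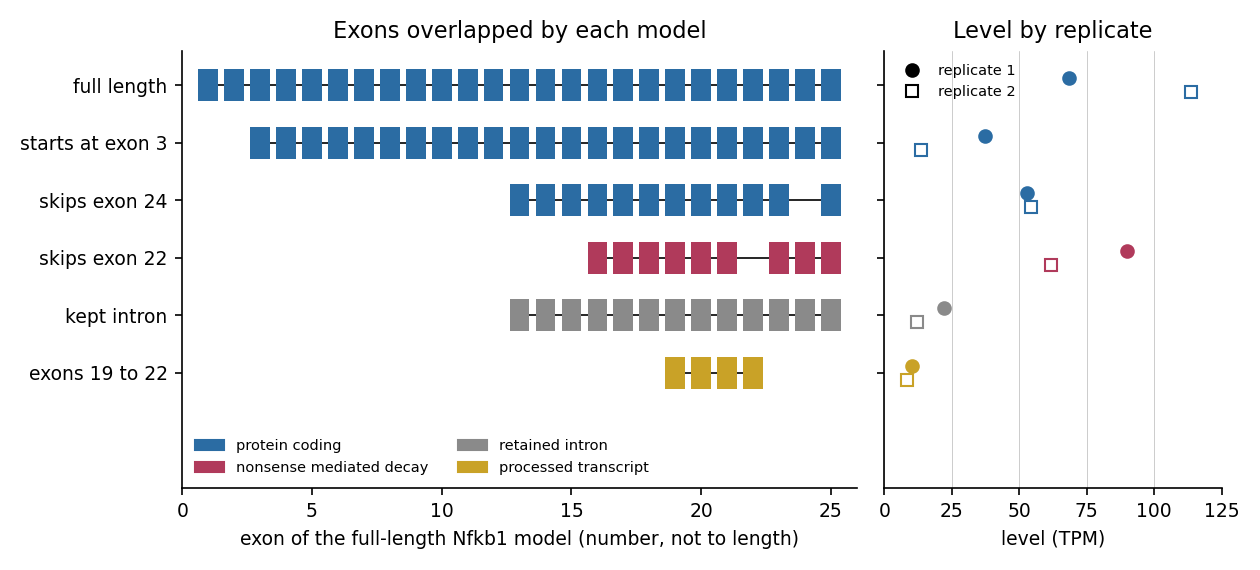
Left, the exons of the full-length Nfkb1 model (numbered, not drawn to length) that each of 6 Nfkb1 models overlaps, coloured by annotated type, with 1 model left out because its annotated length changed between releases. Right, the level of each model in TPM in replicate 1 (filled circles) and replicate 2 (open squares): the full-length model is at 68.4 and 114 TPM and the model without exon 22 at 90.0 and 61.6 TPM.

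For comparison, 1845 genes of 100 or more mean counts had both a complete coding model and a model annotated with mRNA start not found. The median share of TPM on the latter was 2.39%, whereas the Nfkb1 models without exon 24 and without exon 22 together held 50.5% and 43.6% of Nfkb1, and 4.77% of these genes had a larger mean share. Such an annotation means that the start of the mRNA is not known, and it does not record a start inside the mRNA. The comparison is a description of 2 libraries and is no test. Counting complete coding models only, Nfkb1 stood at 116 ± 15.4 TPM, still the highest of the 10 genes in each replicate, and its share of the subunit TPM was 58.7% ± 5.69.

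Nfkb2 (ENSMUSG00000025225.10, chromosome 19, 46304320 to 46312385, plus strand), which encodes p100 and p52 of the non-canonical pathway, stood at 33.3 and 27.4 TPM, a mean of 30.3 ± 4.19 TPM on 1987 and 1568 counts. Both of its models encode the same 2697 nt frame and differ at the 5′ end. The model of the upstream start (ENSMUST00000073116.7) held 84.2% ± 0.530 and that of the downstream start (ENSMUST00000111881.2) 15.8% ± 0.530 of the gene's TPM, the steadiest split among the members with several models of comparable level. In GENCODE M21 the former starts 7 bases and the latter 1 base from a RefSeq start site, at 46304737 and 46305695. Both models were longer in the authors' annotation (3054 and 3205 nt, against 2979 and 3141 nt), so their starts there may differ. Nfkb2 overlaps Psd on the opposite strand, which was at 0.31 and 0.09 TPM, and AC114539.1, which was not analysed here.

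NF-kappaB is known to act on promoters of several of its own genes, so the RefSeq promoters of the 10 genes (build GRCm38.p6, 250 bases before to 50 after the start) were searched for its binding motif. A promoter was found for 7 genes, 9 promoters in all, and none was found for Nfkb1, Relb and Nfkbiz. The kappaB consensus (3 G, a purine, any base, A or T, 2 pyrimidines and 2 C), on either strand and with overlapping matches counted once, was present in 7 of the 9 promoters and 5 of the 7 genes (Nfkb2, Nfkbia, Nfkbie, Rel and Bcl3). It was present in 4.51% of all 32851 promoters, and in 6.26% of the 11745 promoters within the same range of GC content (56.3% to 75%). The Nfkb2 promoters at start sites 46305695 and 46305930 overlap and share a match, so the 7 promoters with a match are not all separate. The count of 5 of 7 genes is free of this, but the background shares are per promoter. A broader form (3 G, 5 bases of any kind and 2 C) was present in 8 of the 9, against 50.8% of all promoters and 74.6% of those within the GC range. The 5 windows nearest to these start sites on their upstream side, leaving out the other Nfkb2 promoters, are shown 5′ to 3′ on the gene's strand with the match in capitals, because these genes are textbook targets of the factor they encode or bind.
Nfkb2 39 bases before the start, chr19:46304683-46304723, plus strand: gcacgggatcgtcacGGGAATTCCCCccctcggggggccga
Nfkb2 11 bases before the start, chr19:46304711-46304750, plus strand: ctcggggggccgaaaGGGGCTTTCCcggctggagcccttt
Nfkbia 29 bases before the start, chr12:55492652-55492691, minus strand: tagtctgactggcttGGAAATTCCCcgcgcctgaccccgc
Nfkbie 106 bases before the start, chr17:45555579-45555618, plus strand: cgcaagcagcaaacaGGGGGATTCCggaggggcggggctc
Rel 92 bases before the start, chr11:23771036-23771076, minus strand: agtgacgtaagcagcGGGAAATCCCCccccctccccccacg
Both Nfkb2 windows belong to the promoter next to the start of the upstream Nfkb2 model, the one with the larger share. The capitals of Nfkb2 at 39 bases and of Rel span 11 bases because overlapping matches on both strands were joined. A match is a string of letters, not a measured binding site, and binding was not measured in these libraries.

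Relb (ENSMUSG00000002983.12, chromosome 7, 19606217 to 19629438, minus strand), the partner of p52, stood at 33.3 and 31.2 TPM, a mean of 32.2 ± 1.47 TPM on 1396 and 1254 counts. Its replicate range overlapped that of Nfkb2, and these were the only neighbours in the order of the 10 genes whose ranges overlapped. Relb had 9 models, and 96.3% ± 0.452 of its TPM lay on 3 models with a complete coding sequence. Their coding sequences differ by a single exon of 9 nt, the third exon, which adds 3 codons after codon 33. Relb-202 includes it and Relb-201 skips it. Relb-203 has an exon of 11 nt in its place, which begins 2 bases earlier in the spliced sequence, and gives the same coding sequence as Relb-202. The sequence around this exon is given from GENCODE M21 on GRCm38 (chr7:19619831-19627934, minus strand), with the small exon in capitals.
Relb-202: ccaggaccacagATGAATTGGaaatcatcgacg
Relb-203: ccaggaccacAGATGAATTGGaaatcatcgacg
Relb-201: ccaggaccacagaaatcatcgacg
The 2 models with a small exon held 78.1% of Relb TPM in replicate 1 and 66.8% in replicate 2, and the model without it 18.6% and 29.2%. Forms with and without a small exon were therefore both assigned reads in each replicate, with the forms that include it higher in each. Counts per model are estimates, with a posterior SD of 57.9 and 60.5 counts for Relb-201 in replicates 1 and 2, against estimates of 255 and 362 counts.

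Rel (ENSMUSG00000020275.8, chromosome 11, 23736847 to 23770970, minus strand), which encodes c-Rel, the subunit most tied to lymphoid cells, stood at 13.9 and 10.1 TPM, a mean of 11.98 ± 2.71 TPM on 748 and 520 counts. Rela (ENSMUSG00000024927.7, chromosome 19, 5637483 to 5648130, plus strand), which encodes p65, the main transactivating subunit of the canonical pathway, stood at 8.29 and 8.4 TPM, a mean of 8.34 ± 0.0778 TPM on 432 and 420 counts. Rel was higher than Rela in each replicate, by 1.68 and 1.20 times. Rela was the lowest subunit gene, and the level of Relb was 3.86 ± 0.212 times that of Rela. Both genes had 1 model. The Rel model used by the authors was 2799 nt long, whereas the model of the same identifier in the later annotation is 7466 nt long, and the effect of this on the Rel level was not tested.

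The inhibitor genes were led by those of the cytoplasmic inhibitors. Nfkbia (ENSMUSG00000021025.7, chromosome 12, 55489410 to 55492647, minus strand), which encodes IkappaB-alpha, the inhibitor that is resynthesised in response to NF-kappaB itself, stood at 95.9 and 77.8 TPM, a mean of 86.8 ± 12.8 TPM on 2714 and 2113 counts. Nfkbie (ENSMUSG00000023947.7, chromosome 17, 45555703 to 45563169, plus strand), which encodes IkappaB-epsilon, stood at 68.3 and 65.6 TPM, a mean of 67.0 ± 1.88 TPM on 3139 and 2895 counts. Nfkbia was above Nfkbie in each replicate by TPM, but Nfkbie held more counts because its model is longer (2422 against 1577 nt). Nfkbib (ENSMUSG00000030595.11, chromosome 7, 28758251 to 28767512, minus strand), which encodes IkappaB-beta, was lower at 23.4 and 18.8 TPM, a mean of 21.1 ± 3.28 TPM on 505 and 393 counts. The ratio of Nfkbia to Nfkbib was 4.11 ± 0.0328, nearly the same in each replicate. Together these 3 genes held 89.9% ± 2.13 of the TPM on the 5 inhibitor genes, and Nfkbia alone 44.6% ± 3.06.

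Nfkbib overlaps Sirt2, a deacetylase gene on the opposite strand that stood at 31.4 and 27.4 TPM. Whether the authors' counting used strand is not given in the sources used here. No Nfkbib read was shared with another gene in the authors' counting, with a posterior SD of 0 in each replicate. The Sirt2 counts were whole too, at 998 and 854. Whether reads of the overlap arose from the gene they were counted for was not tested. Nfkbib-202 held 98.0% ± 0.969 of the Nfkbib TPM, and Nfkbib-201 1.97% ± 0.969, both with the same 1077 nt coding length. By the deposited posterior means the share of Nfkbib-202 was 94.65% and 89.33%. The incomplete model Nfkbib-203, at 0 TPM in both replicates, then held 3.85% and 7.86%.

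The nuclear members were lower. Nfkbiz (ENSMUSG00000035356.12, chromosome 16, 55811375 to 55838899, minus strand), which encodes IkappaB-zeta, a nuclear cofactor of p50 dimers, stood at 15.1 and 18.1 TPM, a mean of 16.6 ± 2.08 TPM on 897 and 1087 counts. Its models begin at separate starts, 16761 bases apart. Nfkbiz-204, which begins at the downstream start and encodes the longer frame of 2184 nt, held 56.5% and 60.7% of the TPM. Nfkbiz-203, which begins at the upstream start and encodes a frame shorter by 99 codons, held 17.2% and 20.1%. The non-coding model Nfkbiz-205, which also begins upstream and shares no exon with Nfkbiz-204, held 26.3% and 19.2%. The longer frame thus had the larger share in each replicate, and Nfkbiz-201 and Nfkbiz-202 had 0 estimated counts.

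Bcl3 (ENSMUSG00000053175.12, chromosome 7, 19808462 to 19822770, minus strand), a nuclear partner of p50 and p52 homodimers, was the lowest of the 10 genes, at 2.47 and 3.19 TPM, a mean of 2.83 ± 0.509 TPM on 74 and 58 counts. The level of Nfkbiz was 5.89 ± 0.325 times that of Bcl3. Only 1 of its 7 models encodes the complete protein (ENSMUST00000120537.3), at 2.08 and 1.37 TPM. Its share of Bcl3 was 84.2% in replicate 1 and 42.9% in replicate 2, and the other models held at most 4.49 counts each. By the deposited posterior means the share was 52.5% and 28.8%. The TPM of Bcl3 was higher in replicate 2 while its counts were lower, since the authors' effective length fell from 1436 to 906 nt with the change of models. No order of the replicates can be read from these values. Of the antisense genes that overlap it, Gm16174 held 2 and 0 counts and Gm16175 0 in both.

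**Figure D3:**
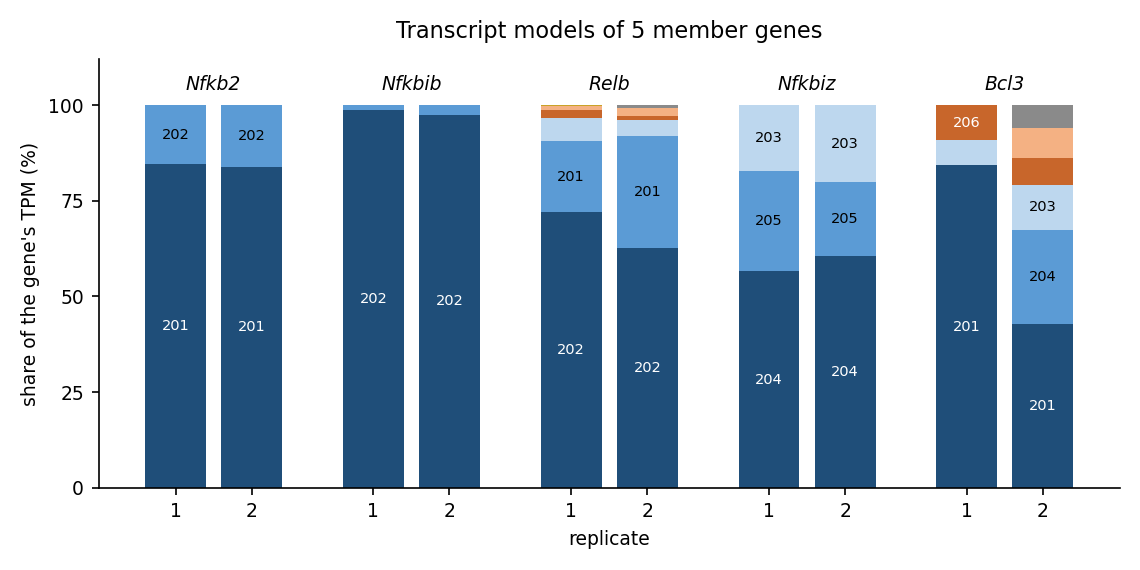
Percent of the TPM of Nfkb2, Nfkbib, Relb, Nfkbiz and Bcl3 assigned to each transcript model, with a bar per replicate and the model number printed in segments above 8%. The split is nearly the same in both replicates for Nfkb2 (84.5% and 83.8% on the upstream model, the bottom segment), and differs for Relb (18.6% and 29.3% on Relb-201) and Bcl3 (84.2% and 42.9% on the complete coding model, the bottom segment).

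Ordered by mean level, the genes ran Nfkb1, Nfkbia, Nfkbie, Relb, Nfkb2, Nfkbib, Nfkbiz, Rel, Rela and Bcl3. Replicate ranges did not overlap between neighbours except for Relb and Nfkb2, whose order turned in replicate 1, where they stood at 33.26 and 33.30 TPM. Within a library, the deposited credibility bounds, which surround a posterior mean and not the TPM itself, set fewer neighbours apart. In replicate 1 those of Nfkbiz (13.5 to 15.8 TPM) overlapped those of Rel (12.5 to 14.5 TPM), as did those of Relb and Nfkb2. In replicate 2 those of Nfkbib (17.2 to 22.0 TPM) overlapped those of Nfkbiz (16.5 to 18.9 TPM), and those of Rel (8.997 to 10.7 TPM) met those of Rela (7.46 to 9.02 TPM). With 2 libraries, these orders have no test.

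Subunit genes summed to 372 and 343 TPM and inhibitor genes to 205.2 and 183.45 TPM, a ratio of 1.84 ± 0.0402. Without Nfkb1 the order turned: the other 4 subunit genes together stood at 0.426 ± 0.00892 times the inhibitor genes. Counting complete coding models only, the ratio was 0.962 in replicate 1 and 1.14 in replicate 2 (1.05 ± 0.126), so its direction turned between the replicates. These ratios are of RNA, and they do not count the ankyrin parts of p105 and p100, which can also inhibit. They also depend on which genes are called inhibitors. The sum includes the nuclear members Nfkbiz and Bcl3. It leaves out Nfkbid, which encodes the nuclear inhibitor IkappaB-NS and stood at 110.94 and 99.98 TPM, so counting it would lower the ratios.

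Between the replicates, none of the 10 genes differed by more than 1.5-fold in log2(TPM + 0.5), against 2.69% of the 11661 genes of 20 or more mean counts. All 10 genes passed that count filter. The median absolute difference was 0.26 log2 units over the 10 genes and 0.14 over all 11661, and 6 of the 10 exceeded the latter. By TPM 7 of the 10 were lower in replicate 2, against 50.2% of all genes, with a median of -0.09 against -0.00 over all genes. With counts scaled to the ERCC spike-ins, which shifted the median of all genes to 0.29, only Rel was lower. The largest difference was that of Rel, at -0.45 (1.38 times higher in replicate 1), and its share of the counts in replicate 2 was 0.721 times that in replicate 1 (95% exact binomial interval 0.643 to 0.807, counting error only). Relative to the shift of all genes, Rel was lower in replicate 2 under each scaling tried.

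Nfkbia and Nfkbib differed by -0.30 and -0.31, Nfkb2 by -0.28, and Nfkbiz in the other direction by 0.25. For Nfkb1 the sign depended on the unit: its difference was -0.09 by TPM and 0.09 by TMM-scaled counts, because its effective length went from 2450 to 2766 nt with the change of models. The sign for Bcl3 depended on it too, 0.31 by TPM and -0.24 by TMM-scaled counts. Rela and Nfkbie were the closest, at 0.02 and -0.06.

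**Figure D4:**
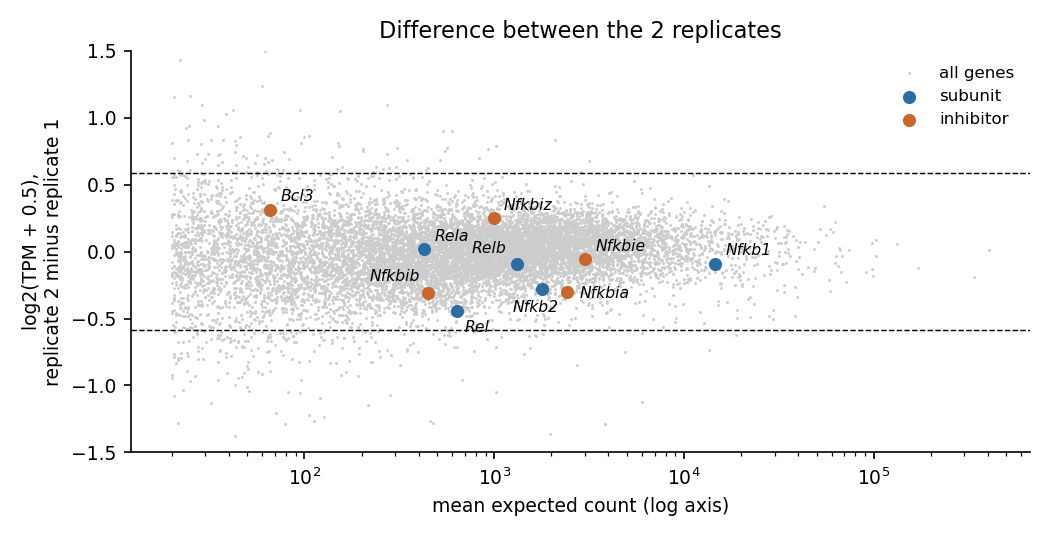
Difference between the replicates, log2(TPM + 0.5) in replicate 2 minus replicate 1, against the mean expected count (log axis), for 11661 genes in grey and the 10 NF-kappaB genes in colour, with 14 genes beyond the axis limits of 1.5 not shown. Dashed lines mark 1.5-fold, which none of the 10 genes crosses, and Rel lies lowest at -0.45.

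Isoform shares were compared in the same way. Of the 6 members with several models, 3 (Nfkb1, Relb and Bcl3) had a model whose share differed by 10 percentage points or more between the replicates, against 30.7% of 8094 genes with several models and 20 or more mean counts. Among genes of 1000 or more mean counts, 2 of the 3 such members did (Nfkb1 and Relb, not Nfkb2), against 13.6% of 3503. In that group the median largest move was 3.49 points and 2.83% of genes moved more than the 18.6 points of Nfkb1. Relb lay just inside the limit at 10.7 points and Nfkbiz just outside at 7.09 points.

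Transcripts of most of the pathway were found. Of 69 genes in 7 lists, with Tnfaip3 and Birc3 in more than 1 list, 65 (94.2%) reached 1 TPM in both replicates. The share was 25.4% over all annotated genes and 45.9% over protein-coding genes. The median of the 69 was 32.6 TPM. All 10 genes of the kinase list, which also holds regulatory and adaptor genes, passed, with a median of 21.6 TPM. Of the IKK complex that phosphorylates the inhibitors, Chuk (IKK-alpha) stood at 63.3 and 77.9 TPM, Ikbkb (IKK-beta) at 27.4 and 26.8 TPM and the regulatory subunit Ikbkg at 20.3 and 19.1 TPM. Chuk was thus the highest of the 3 in each replicate and the highest of the kinase list, and the lowest were Tab3, an adaptor of the kinase TAK1, at 3.14 and 3.0 TPM and Map3k14, which encodes NIK, the kinase of the non-canonical pathway, at 3.44 and 3.23 TPM.

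Of the genes that link the B-cell receptor to IKK, Prkcb, a protein kinase C gene, stood at 135 ± 16.1 TPM, Bcl10 at 120 ± 2.91 TPM and the paracaspase gene Malt1 at 100.6 ± 5.38 TPM. All 6 genes of the ubiquitin ligases passed, from the shared ligase subunit Skp1a at 321 ± 50.3 TPM to Btrc at 3.27 ± 0.0354 TPM. Btrc and its paralog Fbxw11 recognise phosphorylated inhibitors, and Fbxw11 stood far above at 65.3 and 63.2 TPM. The linear ubiquitin genes ran from Rbck1 at 79.4 ± 6.49 TPM to the catalytic subunit Rnf31 at 2.94 ± 0.0919 TPM.

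Of 10 feedback inhibitors 9 passed. Birc2 was highest at 111.8 ± 12.8 TPM, although its count in replicate 1, and those of Birc3 in both replicates, were not whole, so some reads were shared. Tnfaip3, which encodes the deubiquitinating enzyme A20, stood at 39.7 and 29.6 TPM, and Traf3, which keeps NIK low, at 8.4 and 7.36 TPM. Tnip3 fell short of the limit in replicate 2, at 1.09 and 0.94 TPM. Of 9 further regulators 8 passed, led by Commd1 at 136 ± 14.8 TPM, also with shared reads. Among them Nfkbid, which encodes the nuclear inhibitor IkappaB-NS, stood at 110.94 and 99.98 TPM, above each of the 5 inhibitor genes in each replicate. Ankrd42 did not pass, with 9 counts in each library.

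Of 28 textbook targets of NF-kappaB 26 passed, with a median of 67.4 TPM. Cd74, the MHC class II invariant chain, was highest at 2359 ± 165 TPM, followed by the chemokine gene Ccl22 at 1072 and 848 TPM and the cytokine gene Il10 at 693 and 740 TPM. The survival genes Bcl2a1b, Bcl2a1d and Bcl2a1a stood at 672 ± 35.1, 387 ± 16.9 and 231 ± 11.2 TPM, and these near-identical copies can share reads. The cytokine gene Il6 and the surface receptor gene Slamf1 did not pass, at 0.66 and 0.63 TPM and at 0.62 and 0.54 TPM. These genes have other regulators too, and the level of a target in 1 condition is no measure of NF-kappaB activity.

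**Figure D5:**
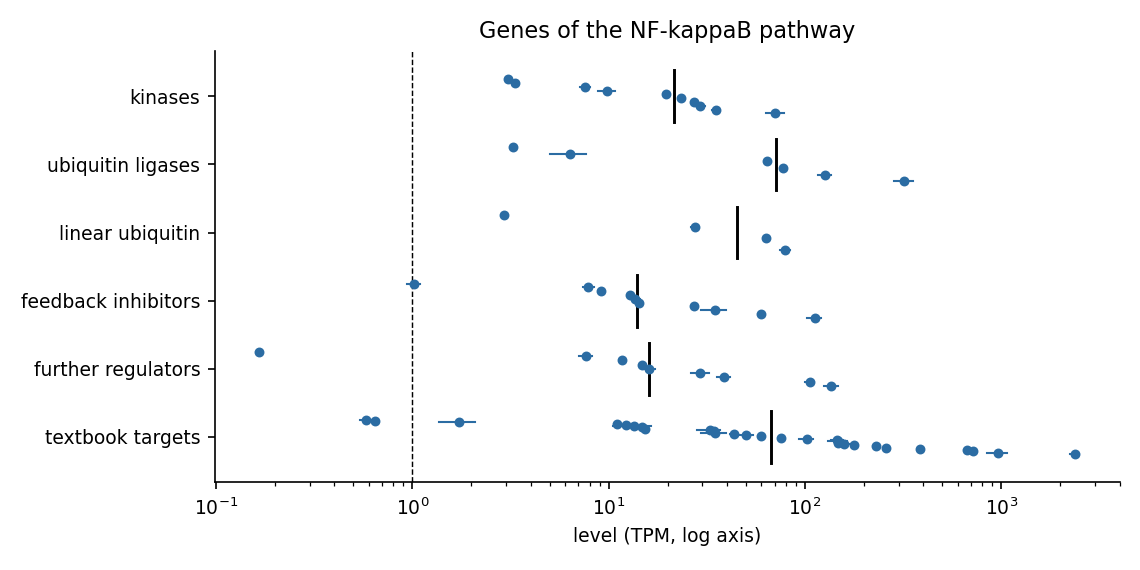
Level in TPM (log axis) of each gene in 6 of the pathway lists, as the mean (points) and the range of the 2 replicates (lines), with the median of each list as a black bar and 1 TPM as a dashed line. Tnip3, Ankrd42, Il6 and Slamf1 are the 4 genes below the line in at least 1 replicate.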

How the data were processed

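RNA-seq of 2 libraries, biological replicates of 1 group, was used as deposited, and whether the RNA was total or polyA+ selected was not settled from the labels. The alignments were to mm10 with GENCODE annotation M4, per the text deposited with the tables, and no aligner, quantifier or use of strand is given in the sources used here. The deposited expected counts, named so per the file headers, estimate the reads of a gene or transcript and are not normalized. TPM and FPKM values were deposited by the authors, scaled by effective length and library, and FPKM served 1 alternative only. The isoform percent deposited by the authors gives how a gene's TPM divides over its transcripts. Deposited uncertainty scores (credibility bounds of TPM, at a level not given, and the posterior SD of counts) and posterior means were used as deposited.

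Symbols, transcript types, exons, coordinates and junction sequences came from GENCODE M21 on GRCm38 (mm10), and 42462 of 43346 genes had a symbol. Of the 37 transcript models of the 10 genes, 1 was not in M21 and 7 had another length there. Promoters came from RefSeq (GRCm38.p6).

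A gene counted as expressed at 1 TPM in both replicates. Levels are mean ± SD over 2 replicates, which with 1 group allow no test. Differences subtract replicate 1 from replicate 2 on the log2(TPM + 0.5) scale, over genes of 20 or more mean expected counts, a scale that understates changes of low genes. The totals of expected counts on annotated genes, 24379174 and 23517901, set the counting error. It is given as exact binomial intervals at 95% of the ratio of each gene's share of the counts. Reads are not independent molecules, so these intervals cover counting error only. The replicates' counts differed beyond sampling noise (chi-square per degree of freedom 10.1 over 9859 genes), so they were treated as separate libraries.

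Alternatives were TMM factors (edgeR 4.0.16) and size factors (DESeq2 1.42.0) on rounded expected counts, ERCC scaling, posterior means, other pseudocounts and thresholds, and each replicate left out. Python 3.11.15, pandas 2.3.3, scipy 1.17.1 and R 4.3.3 were used. Only the log2 difference and the binomial interval were tested on simulated counts. Those counts had sampling noise only, less than the noise between these replicates. The 10 genes and the lists were chosen with earlier results of these data known. Named genes are the 10 members and, of each pathway list, the highest, the lowest, those under 1 TPM and those needed to describe the list, except 1 gene whose result is not reported here. The models and junctions shown were chosen after their values were seen.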

Additional observations from a re-analysis of the deposited data

How the results depend on the processing

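Of 35 alternatives of the summary values, 28 stayed within a set tolerance. It was the replicate SD for shares and the ratio, and 1.5 times for counts. For the median difference it was the median absolute difference of all genes, 0.14. Leaving out 1 of 2 replicates cannot move a mean beyond their SD. Dropping the count filter could not change a count, since all 10 genes passed it. Part of this tally was thus fixed in advance, and it does not measure stability. Taking only complete coding models, an alternative chosen after seeing the data, moved the Nfkb1 share of subunit TPM from 76.8% to 58.7% and the ratio of subunit to inhibitor TPM from 1.84 to 1.05 (0.962 and 1.14 in the 2 replicates, on either side of equality). With expected counts, which are not per length, the Nfkb1 share was 77.9%, the Nfkbia share of the inhibitors 34.7% and the ratio 2.71. With spike-in scaling the median difference of the 10 genes was 0.12 and 1 gene, Nfkbiz at 0.64, passed 1.5-fold. Leaving out a replicate gave ranges of 76.1% to 77.5% for the Nfkb1 share, 42.4% to 46.7% for the Nfkbia share and 1.81 to 1.87 for the ratio. The difference between replicates needs both, so no replicate could be left out of it. At 5 TPM, 9 of the 10 genes (all but Bcl3) and 60 of the 69 pathway genes passed, and 66 by posterior mean at 1 TPM. Posterior means kept the order of the 10 genes and moved Rela to 8.14 and Bcl3 to 4.15 TPM, and the share of the complete Bcl3 model from 63.6% to 40.7%. They moved the share of Nfkbib-202 from 98.0% to 91.99%. Bcl3, with 74 and 58 counts, is the member whose level is least certain, and model shares are estimates from shared reads. No paired analysis was possible because the series has a single group.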
